A study of Mus musculus with 24 samples.

Results

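The RNA of 9 proteasome subunits was followed across all 24 samples of a panel of glycan-engineered MC38 cell lines. The members were fixed by name as 5 inducible subunits (Psmb8, Psmb9, Psmb10, Psme1 and Psme2) and 4 constitutive subunits (Psmb5, Psmb6, Psmb7 and Psme3). Their gene identifiers were matched to symbols among 52636 genes, and each of the 9 members had a single entry. All 9 passed the filter on low values in every comparison, so no member is left out below.

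The proteasome is the barrel-shaped protease that degrades ubiquitin-tagged proteins, and many of the peptides shown on MHC class I molecules come from it. Its cutting sites are carried by the constitutive subunits Psmb5 (β5, chymotrypsin-like activity), Psmb6 (β1, caspase-like activity) and Psmb7 (β2, trypsin-like activity). In cells exposed to interferon-γ these are exchanged in newly built barrels for Psmb8 (LMP7, in place of β5), Psmb9 (LMP2, in place of β1) and Psmb10 (MECL-1, in place of β2), which gives the immunoproteasome. Psme1 and Psme2 (PA28α and PA28β) form an interferon-inducible cap that opens the barrel, whereas Psme3 (PA28γ) forms a cap of its own in the nucleus.

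MC38 is a colorectal cancer cell line from a C57BL/6 mouse, and 8 lines with 3 samples each were sequenced. MC38-WT is the unmodified line, grown without puromycin and harvested at passages 7 to 9. All the other lines were modified and kept in puromycin. MC38-MOCK#1 received an empty CRISPR-Cas9 construct and is the reference of the knockouts MC38-COSMC KO (C1galt1c1 knockout, the MC38-Tnhigh cells of the study), MC38-CMAS KO (Cmas knockout) and MC38-DKO (both genes), all from passages 4 to 6. MC38-COSMC KO is a bulk population sorted for high binding of the lectin HPA, not a clone. MC38-MOCK#2 is the CRISPR-dCas-VPR control, and the reference of the overexpression lines labelled FUT4 and FUT9. MC38-MOCK#2 and MC38-FUT9 were harvested at passages 6 to 8 and MC38-FUT4 at passages 7 and 8. Passage differs between MC38-WT and MC38-MOCK#1 as puromycin does, so neither can be told apart from the modification there. Between MC38-MOCK#2 and MC38-MOCK#1 both passage and construct differ, and these cannot be told apart either.

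The deposited values are read counts scaled per library and rounded, called normalized counts here. They summed to 10911849 to 12263307 per sample, which corresponds to an estimated 6759106 to 16229893 reads, and the MC38-FUT9 libraries were the deepest group at 13530204 to 16229893 reads. Cmas was at 93 to 142 normalized counts in MC38-CMAS KO and MC38-DKO and at 272 or more in all other samples. C1galt1c1 was at 124 to 163 in MC38-COSMC KO and 220 to 251 in MC38-MOCK#1, but at 166 to 206 in MC38-DKO against 152 to 215 in MC38-CMAS KO, so the RNA does not check the second knockout of MC38-DKO. Fut9 was at 641 to 955 in MC38-FUT9. In MC38-FUT4 its label was contradicted, since Fut4 was at 0 or 1 and Fut9 at 171 to 209, and the line is called the line labelled FUT4 below. All 7 epithelial markers checked, Epcam and the keratins Krt8 and Krt18 included, were at 10 or less in every sample, so the RNA of these cells lacks the markers of the epithelium named in their label. Among 7 leukocyte markers, Ptprc, Cd3e, Adgre1 and Itgam were at 10 or less in every sample. A sum of 6 fibroblast markers lay between 569 and 2564.

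The genes lie in a few places of the mouse genome (build GRCm38). Psmb9 (chr17:34181988-34187764, minus strand) and Psmb8 (chr17:34197721-34201454, plus strand) lie in the MHC beside Tap1 and Tap2, which encode the transporter that carries peptides to MHC class I. Psme1 (chr14:55578123-55581529, plus strand) and Psme2 (chr14:55587441-55591113, minus strand) are neighbours, with Psmb5 (chr14:54614120-54617995, minus strand) on the same chromosome. Psmb10 is at chr8:105935735-105938444 (minus strand), Psmb6 at chr11:70525367-70527858 (plus strand), Psme3 at chr11:101316213-101323537 (plus strand) and Psmb7 at chr2:38588036-38644087 (minus strand). In RefSeq, Psmb9 and Tap1 start 226 bases apart on opposite strands. In the GENCODE annotation, used for the overlaps given here, their exons overlap by 212 bases. Exons of Psmb8 overlap the antisense gene Gm20496 by 498 bases, and those of Psmb7 overlap Nek6 by 405 bases. The library kit keeps the strand, but whether strand was used in counting is not given in the sources used here, and reads that overlapped more than 1 gene were left out. If strand was not used, reads within these overlaps are missing from the counts of both genes. Exons of Psmb5 also overlap the microRNA gene Mir686 by 109 bases, on the same strand. Reads there would be left out either way, if the annotation used for counting holds that gene.

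Promoter windows from RefSeq (GRCm38.p6, 250 bases before to 50 bases after a start) were searched on both strands for 4 motifs, and the matches are printed because members of both kinds moved in these lines. The motifs were GAAANNGAAA (the interferon-stimulated response element, ISRE), TTCNNNGAA (the interferon-γ-activated site, GAS), TGACNNNGC (the antioxidant response element, ARE) and GGGANNNNCC (the kappaB site). Psmb7 and Tap2 had no window in the table. Capitals mark the match, and each sequence runs 5′ to 3′ on the strand of the gene.
Psmb8, GAS, chr17:34198088-34198116, plus strand: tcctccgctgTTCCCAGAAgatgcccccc
Psme1, ISRE on the opposite strand, chr14:55578493-55578522, plus strand: cgagctgtgcTTTCGCTTTCccttcccgct
Psmb5, ARE, chr14:54618024-54618052, minus strand: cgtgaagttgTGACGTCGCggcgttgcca
Psmb6, ARE, chr11:70525338-70525366, plus strand: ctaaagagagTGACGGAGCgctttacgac

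The GAS match of Psmb8 begins 97 bases before the RefSeq start. It lies within an exon of a longer Psmb8 transcript in the GENCODE annotation. The ISRE match of Psme1 begins 9 bases after the start, and the ARE matches of Psmb5 and Psmb6 begin 47 and 9 bases before it. None of the 4 motifs was found in the windows of Psmb9, Psmb10, Psme2, Psme3 or Tap1, which says only that these letters are absent there. Of all 32851 promoter windows, 3.44% held the ISRE, 8.3% the GAS, 12.4% the ARE and 20.7% the kappaB motif, so a match is a description and not a mapped site.

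The inducible catalytic subunits differed widely in level. Per kilobase of exon, in MC38-MOCK#1, Psmb5 was at 1570.2 ± 56.1 normalized counts (SD, n = 3), Psmb6 at 1230.1 ± 79.9 and Psmb7 at 741 ± 13.2. On the same scale Psmb10 reached 687 ± 14.96, close to Psmb7 which it replaces, whereas Psmb8 was at 177 ± 78.0 and Psmb9 at 21.4 ± 10.5. The exonic lengths behind this scale ran from 871 bases (Psmb5) to 3659 (Psmb9), so levels between genes depend on them. They were 1705 bases for Psmb10 and 3421 for Psmb7. Without division by length, Psmb10 was at 1171 and Psmb7 at 2533 normalized counts. Among the caps, Psme1 was at 401 ± 90.6 and Psme2 at 465 ± 113 per kilobase, against 1163.7 ± 81.2 for Psme3. Thus RNA of all 3 immune catalytic subunits was present in mock-treated tumor cells, but Psmb9 only at a low level.

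**Figure D1:**
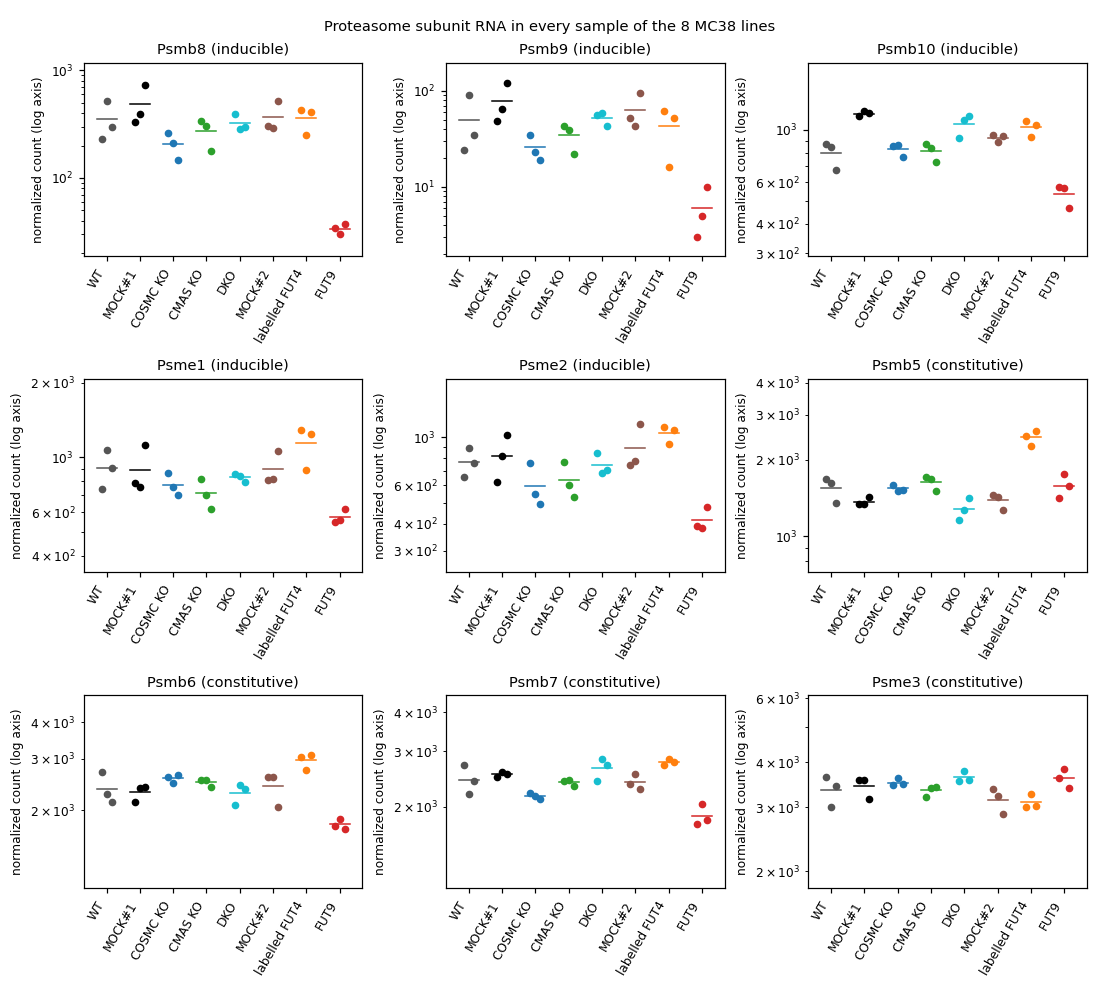
Normalized counts (log axis) of the 9 subunits in each of the 24 samples, grouped by line. Points are samples and bars are means of 3 samples. Psmb8 lies at 30 to 37 in MC38-FUT9 and at 148 to 728 in the other lines, while Psme3 stays between 2870 and 3820 in all samples.

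MC38-FUT9 was compared with MC38-MOCK#2 to ask what the overexpression line changed. All 5 inducible subunits and 2 of 4 constitutive subunits (Psmb6 and Psmb7) were lower in MC38-FUT9, and none was higher. In this comparison 24.1% of 21480 genes passed the test (limma, adjusted p below 0.05) and 12% passed it as lower, beside 7 of the 9 members. For 8 of the 9 members (all but Psmb5) no sample of a line fell among those of the other, as held for 36.8% of all genes. In bulk RNA, fewer cells that express a gene and less RNA in each cell cannot be told apart.

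Psmb8, the subunit that replaces β5, was at 306, 291 and 515 normalized counts in MC38-MOCK#2 and at 34, 30 and 37 in MC38-FUT9. All MC38-FUT9 samples were far below the lowest sample of any other line, which was at 148 in MC38-COSMC KO. The log2 fold change was -3.38 (SE 0.232, 95% confidence interval -3.93 to -2.83, n = 3 against 3), a 10.4-fold lower level (limma, adjusted p = 0.000327).

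Psmb9, which replaces β1, was at 52, 43 and 95 in MC38-MOCK#2 and at 3, 5 and 10 in MC38-FUT9. The MC38-FUT9 values rest on an estimated 4, 7 and 12 reads, and their groups did not overlap. The log2 fold change was -3.24 (SE 0.465, 95% confidence interval -4.35 to -2.14, limma, adjusted p = 0.00363).

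Psmb10, the MECL-1 subunit, was at 949, 886 and 941 in MC38-MOCK#2 and at 573, 568 and 467 in MC38-FUT9, with no overlap. The log2 fold change was -0.79 (SE 0.0943, limma, adjusted p = 0.00181). The calls of Psmb8, Psmb9 and Psmb10 held in 6 of 6 fits that left out a sample, with adjusted p up to 0.0101, 0.0355 and 0.0172.

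Both interferon-inducible cap subunits were lower as well. Psme1 was at 806, 820 and 1056 in MC38-MOCK#2 and at 547, 555 and 616 in MC38-FUT9 (log2 fold change -0.63, SE 0.117, limma, adjusted p = 0.0097). Psme2 was at 740, 778 and 1153 against 388, 382 and 475 (log2 fold change -1.08, SE 0.181, limma, adjusted p = 0.00666). For both genes the groups did not overlap. Both calls were lost without sample 1 and without sample 2 of MC38-FUT9, with adjusted p up to 0.0614 for Psme1 and 0.0522 for Psme2. Reads of Psme2 may be shared with Psme2b, a copy on chromosome 11 with near-identical sequence, which was at 70, 80 and 80 in MC38-FUT9 and at 97 to 244 elsewhere.

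The constitutive subunits had fold changes nearer to 1. Psmb6 (β1) was at 2588, 2607 and 2044 in MC38-MOCK#2 and at 1766, 1868 and 1721 in MC38-FUT9 (log2 fold change -0.43, limma, adjusted p = 0.0267). Psmb7 (β2) was at 2367, 2549 and 2269 against 1757, 2046 and 1812 (log2 fold change -0.36, limma, adjusted p = 0.0201). The groups did not overlap for either gene, but the call of Psmb6 held in 1 of 6 fits without a sample (the one without MC38-MOCK#2 sample 3) and that of Psmb7 in 2 of 6 (without MC38-MOCK#2 sample 3 and without MC38-FUT9 sample 2), and both were lost without a mean-variance trend. Psmb5 (β5) had a log2 fold change of 0.19 (95% confidence interval -0.04 to 0.42, limma, adjusted p = 0.221) and Psme3 one of 0.20 (95% confidence interval 0.00 to 0.39, limma, adjusted p = 0.138), and neither passed the test.

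**Figure D2:**
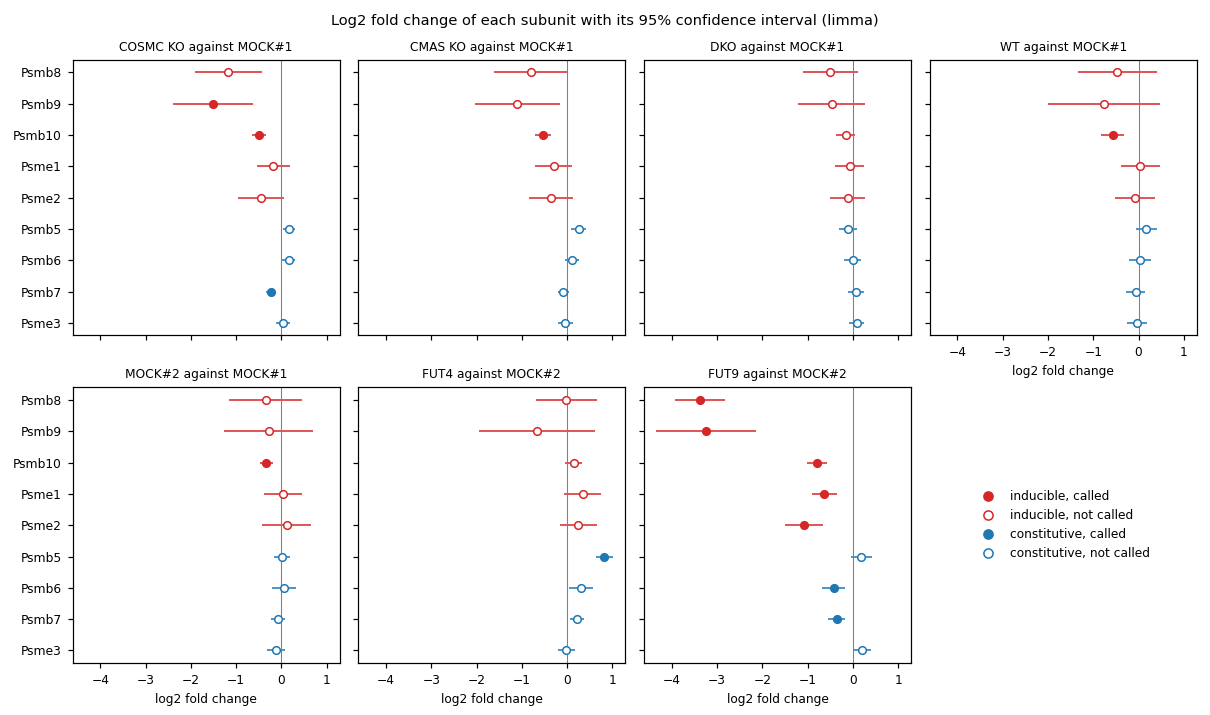
Log2 fold changes of the 9 subunits (rows) in 7 comparisons (panels), with 95% confidence intervals from limma, 3 samples against 3; red marks inducible and blue constitutive subunits, and filled points passed the adjusted threshold. The panel headed FUT4 is the line labelled FUT4. Psmb8 (-3.38) and Psmb9 (-3.24) in MC38-FUT9 lie farthest from 0, and Psmb10 is the one subunit that passed in 5 of the 7 panels.

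The partners of the immunoproteasome in MHC class I presentation were also low in MC38-FUT9. Of 12 genes of the MHC class I pathway, 9 were lower and 1 higher, with a median log2 fold change of -1.06 beside 0.01 over all genes tested. Nlrc5, the transcriptional activator of MHC class I genes, was at 15, 18 and 11 against 228, 205 and 397 in MC38-MOCK#2 (log2 fold change -4.11, limma, adjusted p = 0.000362). Tapbp (tapasin, which loads peptides) had a log2 fold change of -2.90, Tap1 of -2.00 and Tap2 of -2.24, all passing the test. Of 15 interferon signalling genes tested, 6 were lower, among them the transcription factor Irf1 (log2 fold change -1.18, limma, adjusted p = 0.00137), with a list median of -0.19.

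The rest of the proteasome had smaller median changes, which were not tested against those of the members. Of 11 other core subunits tested, 3 were lower and none higher, with a median of -0.12 on the log2 scale. In the 21 genes of the regulatory particle, which recognizes ubiquitin and unfolds substrates, 6 were lower and 3 higher (median -0.24). Psmc6, an ATPase of that particle, was higher (0.73) and Psmd5, an assembly factor of it, lower (-0.66). Psmf1, which encodes a proteasome inhibitor, was lower (-0.54). Of 5 assembly chaperones, Pomp, which is needed to complete the barrel, was higher (0.28) and Psmg2 lower (-0.43). Nfe2l2, a stress-responsive activator of proteasome genes, was lower (-0.55).

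The leukocyte marker sum was 26 to 31 in MC38-FUT9 and 25 to 56 in MC38-MOCK#2, with Ptprc and Cd3e at 10 or less in every sample. The fibroblast marker sum was 1583 to 2564 against 1213 to 2087, and its part in these results was not tested. The MC38-FUT9 libraries were also deeper, at 13530204 to 16229893 estimated reads against 8181023 to 12071122, and the part of depth was not tested.

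A single fit of all 8 lines, added after the values were seen, set MC38-FUT9 against each of the other 7 lines. These comparisons share the MC38-FUT9 samples. Psmb8, Psmb9, Psmb10, Psmb6 and Psmb7 were lower in MC38-FUT9 than in 7 of 7 lines. For Psmb7 the call against MC38-COSMC KO was close to the threshold (limma, adjusted p = 0.0457). The share of all genes called lower against all 7 lines was not counted. Of all genes, 10.9% were called lower against MC38-WT, 17.7% against MC38-MOCK#1, 12.1% against MC38-COSMC KO, 12.6% against MC38-CMAS KO, 17.8% against MC38-DKO, 14% against MC38-MOCK#2 and 15.8% against the line labelled FUT4. The fold by which Psmb8 was lower ran from 5.86 against MC38-COSMC KO to 13.2 against MC38-MOCK#1, and that of Psmb9 from 4.03 to 11.5. Psmb10 was 1.48-fold to 2.19-fold lower. Psme2 passed the test against 6 of 7 lines and Psme1 against 5 of 7, the exceptions being MC38-COSMC KO for both and MC38-CMAS KO for Psme1. Psme3 was called higher against the line labelled FUT4, as were 15.7% of all genes. Psmb5 was higher than in MC38-DKO, where 16.6% of all genes were called higher, and lower than in the line labelled FUT4.

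The line labelled FUT4 shares the MC38-MOCK#2 reference and showed another pattern. Only Psmb5, the constitutive subunit that Psmb8 replaces, passed the test, as higher, where 8.1% of 21734 genes were called higher and 16.1% called in all. Psmb5 was at 1456, 1429 and 1264 in MC38-MOCK#2 and at 2482, 2268 and 2586 in the line labelled FUT4. The groups did not overlap, and the log2 fold change was 0.82 (SE 0.0826, 95% confidence interval 0.63 to 1.02, limma, adjusted p = 0.00137), a 1.77-fold higher level. The call held in 6 of 6 fits without a sample.

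Psmb6 (log2 fold change 0.31, limma, adjusted p = 0.111) and Psmb7 (0.21, limma, adjusted p = 0.0667) did not overlap with MC38-MOCK#2 either, as held for 32.1% of all genes, but did not pass the test. Psmb8 was at 431, 248 and 412 with a log2 fold change of -0.02 (95% confidence interval -0.70 to 0.66), and Psmb9 at 62, 16 and 52. Sample 2 of the line was the lowest for each of the 5 inducible subunits. Of 11 other core subunits 2 were higher, Psma1 (0.60) among them. The fibroblast marker sum was 602 to 826 in this line and 1213 to 2087 in MC38-MOCK#2. Of 4 leukocyte markers tested 1 was higher, with a sum over the list of 54 to 64 against 25 to 56, and of 2 endothelial markers tested 1 was higher, with a sum of 6 to 19 against 2 to 7. The part of these markers was not tested. With equal library totals 2 members passed the test, and in the fit of all 8 lines 3 did. In the fit of all 8 lines, Psmb5 was higher in the line labelled FUT4 than in 7 of 7 lines, by 0.58 to 0.94 on the log2 scale. The share of all genes called higher against each of the 7 at once was not counted. Of all genes, 7.81% were called higher against MC38-WT, 8.6% against MC38-MOCK#1, 7.64% against MC38-COSMC KO, 3.93% against MC38-CMAS KO, 9.1% against MC38-DKO, 11% against MC38-MOCK#2 and 15.8% against MC38-FUT9.

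The knockout of C1galt1c1, which leaves O-glycans at the Tn stage, was compared with MC38-MOCK#1. Psmb9, Psmb10 and Psmb7 were lower in MC38-COSMC KO and no member was higher, in a comparison where 11.6% of 22172 genes passed the test and 5.39% passed it as lower. Samples did not overlap for 6 of the 9 members, beside 28.4% of all genes.

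Psmb9 was at 49, 64 and 122 in MC38-MOCK#1 and at 35, 23 and 19 in MC38-COSMC KO. The log2 fold change was -1.51 (SE 0.376, 95% confidence interval -2.39 to -0.63, limma, adjusted p = 0.0448). This call did not hold in any of the 6 fits without a sample, where the adjusted p reached 0.18, nor without a mean-variance trend or in the fit of all 8 lines. With the replicate number as a block, which in these lines is also the passage number, its adjusted p was 0.223 (limma). Psmb8 was at 330, 395 and 728 against 263, 210 and 148, with no overlap and a log2 fold change of -1.18 that missed the threshold (SE 0.318, limma, adjusted p = 0.0561). From passage 4 to 6, Psmb8 and Psmb9 both rose in MC38-MOCK#1 and fell in MC38-COSMC KO, so the lines lay farthest apart at passage 6. The part of passage was not tested.

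Psmb10 was at 1145, 1196 and 1172 in MC38-MOCK#1 and at 853, 865 and 770 in MC38-COSMC KO, with a log2 fold change of -0.50 (SE 0.0646, limma, adjusted p = 0.00445) that held in 6 of 6 fits without a sample but not with the replicate number as a block (limma, adjusted p = 0.0894). Psmb7 was at 2486, 2576 and 2538 against 2209, 2165 and 2109 (log2 fold change -0.23, limma, adjusted p = 0.0232). Its call held in 2 of 6 such fits and was lost without sample 1 or 2 of MC38-MOCK#1 and without sample 2 or 3 of MC38-COSMC KO, as well as with the block (limma, adjusted p = 0.128) and without a mean-variance trend. Psme1 (-0.18) and Psme2 (-0.45) did not pass the test and overlapped between the lines.

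Of the 12 MHC class I pathway genes, 6 were lower and 1 higher in MC38-COSMC KO, with a median log2 fold change of -0.65 beside 0.00 over all genes. Nlrc5 was among them (-1.38), as were Tapbp (-1.02) and the related editor Tapbpl (-0.89). Tap1 was at 642, 702 and 1087 in MC38-MOCK#1 and at 556, 467 and 374 in MC38-COSMC KO. Of 16 interferon signalling genes, Irf1 alone passed the test (-0.66, limma, adjusted p = 0.00234). The fibroblast marker sum was 1023 to 1246 in MC38-COSMC KO and 678 to 964 in MC38-MOCK#1, and its part in these results was not tested.

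The same reference served the other 4 comparisons, so they are not independent of one another. In MC38-CMAS KO against MC38-MOCK#1, 5.76% of genes passed the test, 2.73% as lower, and Psmb10 was the one member that did. It was at 868, 834 and 731 (log2 fold change -0.53, SE 0.0779, limma, adjusted p = 0.0135), and its call was lost without any 1 of the MC38-MOCK#1 samples and without sample 2 of MC38-CMAS KO, and with the replicate block (limma, adjusted p = 0.13). Psmb8 was at 337, 302 and 178 (-0.79, limma, adjusted p = 0.248) and Psmb9 at 43, 39 and 22 (-1.10, limma, adjusted p = 0.166).

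In MC38-WT, where 5.51% of genes passed the test and 2.81% passed it as lower, Psmb10 was again the one member called, at 872, 842 and 674 (log2 fold change -0.57, limma, adjusted p = 0.0319), but the call was lost in each of the 6 fits without a sample, with adjusted p up to 0.16, and with the replicate block (limma, adjusted p = 0.162). In MC38-MOCK#2, where 11.3% passed and 6.02% passed as lower, Psmb10 was at 949, 886 and 941 (-0.34, limma, adjusted p = 0.017), a call lost without sample 2 of MC38-MOCK#1 or sample 2 of MC38-MOCK#2. Psmb10 of MC38-MOCK#1 was thus above every sample of every other line, the other control lines included. Fibroblast markers moved in the same comparisons: of 6 tested, 3 were higher than in MC38-MOCK#1 in MC38-CMAS KO, 3 in MC38-WT and 2 in MC38-MOCK#2, and none was lower. Their sums were 1083 to 1257, 1014 to 2184 and 1213 to 2087 in these lines against 678 to 964 in MC38-MOCK#1, and their part in the Psmb10 result was not tested.

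In MC38-DKO, 0.092% of 21738 genes passed the test and no member did, with 1632 genes at an unadjusted p below 0.05. Psmb8 was at 396, 283 and 300 (log2 fold change -0.50, 95% confidence interval -1.11 to 0.11) and Psmb10 at 923, 1104 and 1142 (-0.15, 95% confidence interval -0.36 to 0.05). The intervals of Psme1 (-0.39 to 0.25) and Psmb5 (-0.30 to 0.09) also included 0.

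MC38-COSMC KO minus MC38-MOCK#1 was then compared with MC38-DKO minus MC38-CMAS KO, that is the C1galt1c1 knockout with and without Cmas. Each genotype is a single line, so genotype and line cannot be told apart. The inducible catalytic subunits had negative differences of means between the lines with intact Cmas and positive ones between the Cmas knockout lines. MC38-DKO against MC38-CMAS KO was not tested by itself. Samples of these lines overlapped for Psmb8 (396, 283 and 300 against 337, 302 and 178). They met at 43 for Psmb9 and did not overlap for Psmb10. The 2 log2 differences were -1.18 and 0.30 for Psmb8, -1.51 and 0.63 for Psmb9, and -0.50 and 0.38 for Psmb10. The difference between them passed the test for 5 of 9 members, where 22.1% of 21396 genes did, 11.1% with a lower and 11% with a higher difference. It was -1.47 for Psmb8 (SE 0.416, limma, adjusted p = 0.0205), -2.14 for Psmb9 (SE 0.494, limma, adjusted p = 0.00637) and -0.88 for Psmb10 (SE 0.128, limma, adjusted p = 0.000226). Psmb7 had the same sign (-0.38, limma, adjusted p = 0.00738), whereas Psmb5 had the opposite one (0.53, limma, adjusted p = 0.00319).

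The calls of Psmb9, Psmb10, Psmb5 and Psmb7 held in 12 of 12 fits without a sample, and that of Psmb8 in 9 of 12, being lost without sample 3 of MC38-COSMC KO, sample 3 of MC38-CMAS KO or sample 1 of MC38-DKO. Psme1 (-0.40, limma, adjusted p = 0.174) and Psme2 (-0.69, limma, adjusted p = 0.0842) did not pass. In the MHC class I pathway 8 of 12 genes had a lower and 1 a higher difference, with a list median of -0.95, Nlrc5 (-2.27) and Tapbpl (-1.78) among them. In the regulatory particle 6 of 21 were lower, Psmd10 (-0.77) and Psmc1 (-0.63) among them, and 2 were higher, with Psmc6 at 0.92. The fibroblast marker sum was lower in MC38-DKO (569 to 744) than in MC38-CMAS KO (1083 to 1257), and its part was not tested. The C1galt1c1 RNA itself was not lower in MC38-DKO than in MC38-CMAS KO, as given above.

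The RNA balance was next described as the ratio of each inducible to a constitutive subunit in the same sample, per kilobase of exon. Psmb8, Psmb9 and Psmb10 were set against the subunit each replaces. Psme1 and Psme2 were set against Psme3, which forms a cap of its own, so the cap ratios describe no exchange. A ratio of RNA does not measure the exchange of subunits in the barrel. No test was made on these ratios. Their size depends on the exonic lengths, whereas the fold by which a ratio differs between lines does not. Psmb8 RNA amounted to 8.71% ± 3.69 (SD, n = 3) of Psmb5 RNA in MC38-MOCK#2 and to 0.686% ± 0.121 in MC38-FUT9. Psmb9 amounted to 1.42% ± 0.838 of Psmb6 in MC38-MOCK#2 and to 0.174% ± 0.110 in MC38-FUT9. Neither ratio overlapped between these lines.

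Psmb10 amounted to 77.8% ± 7.11 of Psmb7 in MC38-MOCK#2 and 57.6% ± 7.06 in MC38-FUT9, and was highest in MC38-MOCK#1 at 92.7% ± 0.379. In the line labelled FUT4, Psmb8 was at 4.69% ± 1.07 of Psmb5, below MC38-MOCK#2 without overlap, with Psmb5 higher and Psmb8 not called. In MC38-COSMC KO it was at 4.26% ± 1.09 against 11.2% ± 4.49 in MC38-MOCK#1, also without overlap. The cap ratios were lowest in MC38-FUT9, where Psme1 was at 21.3% ± 2.57 and Psme2 at 19.4% ± 3.54 of Psme3, against 38.3% ± 9.39 and 48.1% ± 16.6 in MC38-MOCK#2.

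**Figure D3:**
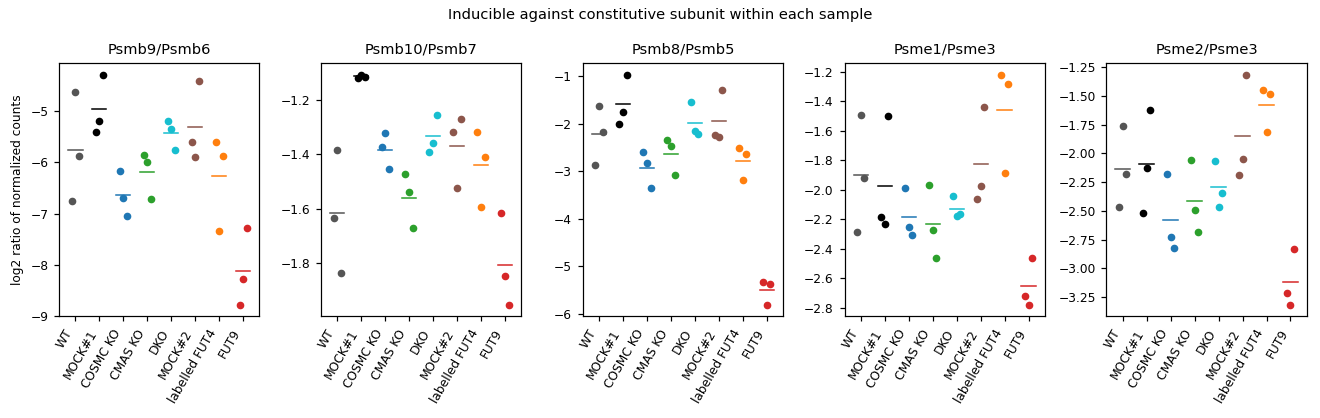
Log2 ratio of normalized counts plus 1 between each inducible subunit and the constitutive subunit named beside it. Points are samples and bars are line means, not divided by length. The panels have different scales. MC38-FUT9 has the lowest mean in all 5 panels, and Psmb8/Psmb5 shows the widest gap.

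Samples of 1 line also differed among themselves, and the inducible subunits did so together. Psmb8 reached 522 in sample 2 of MC38-WT against 229 and 298 in the other samples, 728 in sample 3 of MC38-MOCK#1 against 330 and 395, and 515 in sample 3 of MC38-MOCK#2 against 306 and 291. In each of these lines the same sample was the highest for Psmb9, Psme1 and Psme2. With each line centred on its own mean, Psmb8 correlated with Psmb9 at r = 0.88, with Psme1 at r = 0.93 and with Psme2 at r = 0.90 over 24 samples. Psmb10 stood apart, with r between 0.07 and 0.24 to the other inducible subunits and r = 0.61 with the constitutive Psmb5. Psme3 went the opposite way, with r = -0.83 to Psmb8 and r = -0.84 to Psme1. The same samples were high for Tap1 (r = 0.92 with Psmb8) and Tap2 (r = 0.90). These values are descriptions, since the samples share libraries, scaling and lines.

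**Figure D4:**
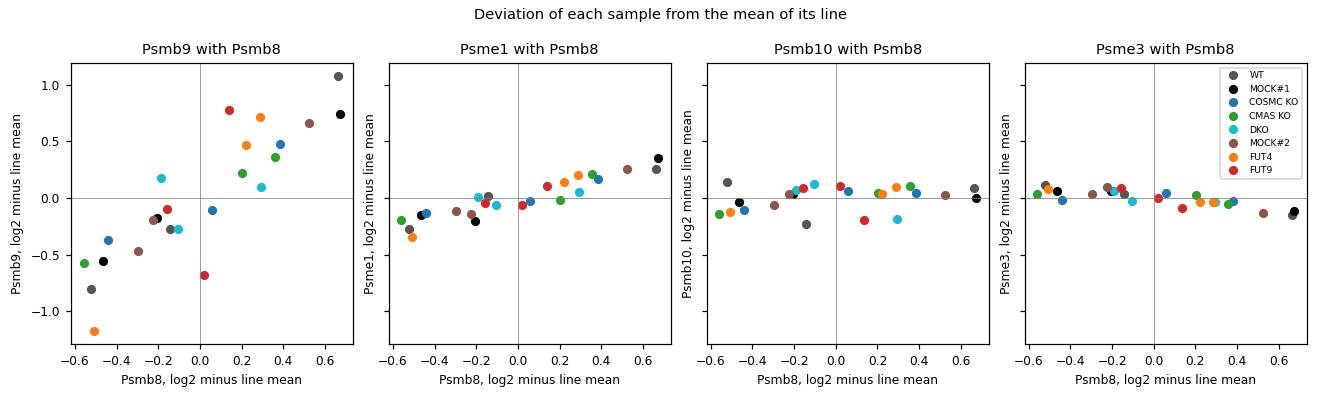
Deviation of each of the 24 samples from the mean of its line (log2 of normalized count plus 1) for Psmb8 on the horizontal axis and Psmb9, Psme1, Psmb10 or Psme3 on the vertical axis, colored by line. The red points are MC38-FUT9 and the orange points the line labelled FUT4. Psmb9 and Psme1 rise with Psmb8, Psmb10 stays nearly level, and Psme3 falls.

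Over all 24 samples, the genes most like each member were found among 10868 genes with a mean of at least 50. Psmb8 was most like Ifi204 (Pearson r = 0.98), Clu (0.97) and Ifih1 (0.97). Psmb9 was most like Tapbp, Tap1 (both 0.96) and Plin3 (0.96), all on chromosome 17. Psmb10 was most like Zfyve19 (0.94), Hpdl and Arrb2 (both 0.93). These values include the MC38-FUT9 samples. Without them, over 21 samples, r with Psmb8 was 0.93 for Ifi204, 0.86 for Clu and 0.91 for Ifih1. With Psmb9 it was 0.93 for Tapbp, 0.94 for Tap1 and 0.89 for Plin3. With Psmb10 it was 0.83 for Zfyve19, 0.88 for Hpdl and 0.81 for Arrb2.

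Psme1 was most like Psme2 (0.93), Psme2b (0.93) and Ifitm3 (0.91). Psme2 was most like Psme2b (0.97), with which it may share reads, Ifitm3 (0.95) and Bnip3l (0.94). Without the MC38-FUT9 samples r was 0.89, 0.89 and 0.87 for Psme1 and 0.95, 0.91 and 0.89 for Psme2, in the same order. The constitutive subunits had other neighbours. Psmb5 was most like Gm3375 (0.91), Edc3 (0.89) and Dad1 (0.89). Psmb6 was most like the proteasome subunits Psmd4 (0.91) and Psmb3 (0.90) and the polymerase subunit Polr2e (0.90). Without the MC38-FUT9 samples, r with Psmb6 was 0.80 for Psmd4, 0.78 for Psmb3 and 0.82 for Polr2e, whereas r of Psmb5 with Gm3375 stayed at 0.91. Psmb7 was most like Tubb4b (0.93), M6pr (0.91) and Ciao1 (0.90), and Psme3 like Dhx9 (0.94), Cct8 (0.93) and Hspa4 (0.93). Leaving out the MC38-FUT9 samples, these were 0.87, 0.80 and 0.84 for Psmb7 and 0.94, 0.95 and 0.93 for Psme3.

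Across all 8 lines, 8 of the 9 members differed between lines by a moderated F test, where 48.2% of 20944 genes did. Psmb8 (F = 26.7), Psmb10 (F = 22.7) and Psmb5 (F = 19.2) differed most relative to their spread within lines, and 4.46%, 5.62% and 7.27% of all genes had a larger F. Psmb9 had F = 9.26, with a wide spread among samples, Psme2 8.90, Psmb6 9.61, Psmb7 11.6 and Psme1 6.29. Psme3 did not pass the test (F = 2.51, limma, adjusted p = 0.0884).

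In order of line means, Psmb8 and Psmb9 ran from MC38-MOCK#1 (484 ± 214 and 78.3 ± 38.6) to MC38-COSMC KO (207 ± 57.6 and 25.7 ± 8.33), with each neighbour in that order overlapping the next, and then dropped to MC38-FUT9 (33.7 ± 3.51 and 6.00 ± 3.61) without overlap. Without MC38-FUT9 the highest line mean of Psmb8 was 2.34 times the lowest, and that of Psmb9 3.05 times. Psme1 and Psme2 were highest in the line labelled FUT4 (1139.7 ± 222 and 1038 ± 97.2), overlapping the next line. Psmb5 and Psmb6 were highest in the line labelled FUT4 (2445 ± 162 and 2968 ± 186) and did not overlap the next line, MC38-CMAS KO for Psmb5 and MC38-COSMC KO for Psmb6. Psme3 ranged only from 3101 ± 145 in the line labelled FUT4 to 3632 ± 135 in MC38-DKO.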

How the data were processed

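PolyA RNA of 24 samples (8 lines, 3 samples each) was analysed. The authors aligned 50 bp single reads of a stranded kit to GRCm38 (HISAT2 2.0.4, SAMtools 0.1.19), counted them per gene without reads that overlapped several genes (featureCounts of Subread 1.5.0-p3) and scaled them with edgeR 3.18.1. In the table as deposited (unit: score), the authors had already scaled read counts by library and rounded them, so they are not raw counts and no count test was used. Estimated reads rest on a search for that factor between 0.7 and 2.5, which was off by at most 0.0103% on simulated data. The paper states harvests at separate time points, so p-values measure the spread between harvests of 1 line.

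Limma 3.58.1 in R 4.3.3 was fitted to 3 samples against 3 after adding a pseudocount of 1 and taking log2, with a mean-variance trend, and genes with more than 4 zeros among 6 samples left out. The interaction was fitted to 12 samples (more than 8 zeros left out) and the F test to 24 (more than 16). Calls are Benjamini-Hochberg adjusted p below 0.05 over all genes tested, and fold changes are on the log2(value + 1) scale, which understates changes of low genes. Sequences and levels were handled in Python 3.11.15 with pandas 2.3.3, and figures drawn with matplotlib 3.10.9.

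Named are the 9 members, Tap1 and Tap2, the 3 genes most like each member, and from each gene list up to 4 genes called in more than 1 comparison. Members and lists were chosen with earlier results of these data known. The targeted genes were also named. Same-numbered samples share a passage number among MC38-MOCK#1 and the knockouts and between MC38-MOCK#2 and MC38-FUT9, but not in the other comparisons. Whether they were harvested together is not given in the sources used here, and their deviations correlated at r between -0.2132 and 0.2537 over 21 pairs, so the fit without a block was kept. Alternatives were another pseudocount, no filter, other scalings, no trend, a fit of 8 lines, a replicate block and leaving out each sample.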

Additional observations from a re-analysis of the deposited data

Results flagged for a closer look

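By limma's interaction contrast over 12 samples, MC38-COSMC KO minus MC38-MOCK#1 differed from MC38-DKO minus MC38-CMAS KO for 5 of the 9 subunits. Each genotype is a single line, so genotype and line cannot be told apart. On the log2 scale the difference between both was -1.47 for Psmb8, -2.14 for Psmb9, -0.88 for Psmb10, 0.53 for Psmb5 and -0.38 for Psmb7. Of all genes, 22.1% passed the same test. By mean, MC38-MOCK#1 and MC38-DKO are the higher lines of both contrasts for Psmb8, Psmb9 and Psmb10. MC38-DKO against MC38-CMAS KO was not tested by itself. C1galt1c1 RNA was at 166 to 206 in MC38-DKO and at 152 to 215 in MC38-CMAS KO, and its part in the result was not tested.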

How the results depend on the processing

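Of 990 refits of single members, 896 kept direction and call, 52 lost a call, 13 gained one and 29 changed sign, the last all far from the threshold (adjusted p of 0.616 or more). The subunit ratios stayed within their replicate spread under 160 of 160 alternatives, which were another pseudocount or a sample left out. Leaving out 1 of 3 samples always keeps a mean within that spread, so only the other pseudocount tested the ratios. With a pseudocount of 5 in place of 1, the mean log2 ratio of Psmb9 to Psmb6 in MC38-FUT9 went from -8.12 (SD 0.76) to -7.40. The cause of the changes below was not tested.

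Without a trend in eBayes, the genes called numbered 1135 for MC38-COSMC KO, 726 for MC38-CMAS KO, 40 for MC38-DKO, 717 for MC38-WT, 1389 for MC38-MOCK#2, 2270 for the line labelled FUT4 and 3430 for MC38-FUT9, and the members called numbered 1, 0, 0, 0 and 0 for the first 5. The calls lost included Psmb10 in MC38-CMAS KO, MC38-WT and MC38-MOCK#2, and Psmb8 in the interaction. With all 8 lines in a single fit, 2207 genes were called for MC38-CMAS KO, 159 for MC38-DKO, 2981 for MC38-WT and 3976 for MC38-MOCK#2, and 3 members for the line labelled FUT4. With equal totals 2 members were called for that line, and Psme3 in MC38-COSMC KO went to -0.022.

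With the replicate number as a block, 4 genes were called for MC38-COSMC KO, 1 for MC38-CMAS KO, 0 for MC38-DKO, 0 for MC38-WT and 1756 for the line labelled FUT4 by limma, with 4669, 3960, 1408, 3788 and 6144 at an unadjusted p below 0.05. No member was called for the first 4. The numbers were not taken as a pairing, since in 0 of 7 comparisons every pair correlated above 0.1, although they match the passage numbers among MC38-MOCK#1 and the knockouts and between MC38-MOCK#2 and MC38-FUT9.

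Leaving out each sample in turn, genes called ran from 675 to 2137 for MC38-COSMC KO, 122 to 876 for MC38-CMAS KO, 0 to 4 for MC38-DKO, 31 to 693 for MC38-WT, 632 to 1737 for MC38-MOCK#2, 1621 to 3112 for the line labelled FUT4, 3089 to 5065 for MC38-FUT9, 3925 to 4697 for the interaction and 6180 to 7662 for the F test. Members called ran from 1 to 2, 0 to 1, 0 to 0, 0 to 0, 0 to 1, 1 to 2, 3 to 7, 4 to 6 and 8 to 8 in the same order.

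Log2 fold changes that crossed 0 when a sample was left out ran from -0.28 to 0.0021 (Psme1) and -0.024 to 0.065 (Psme3) in MC38-COSMC KO, and from -0.17 to 0.11 (Psme1), -0.30 to 0.055 (Psme2) and -0.061 to 0.064 (Psmb6) in MC38-DKO. In MC38-WT they ran from -0.089 to 0.22 (Psme1), -0.26 to 0.092 (Psme2), -0.069 to 0.11 (Psmb6), -0.14 to 0.011 (Psmb7) and -0.094 to 0.042 (Psme3). In MC38-MOCK#2 they ran from -0.61 to 0.091 (Psmb9), -0.10 to 0.20 (Psme1), -0.084 to 0.29 (Psme2) and -0.025 to 0.077 (Psmb5), and in the line labelled FUT4 from -0.17 to 0.24 (Psmb8) and -0.088 to 0.028 (Psme3).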
